A study of Rattus norvegicus with 90 samples.

Results

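A set of 150 transcripts was detected in rat hepatocytes, renal tube epithelial cells and cardiomyocytes, and was selected on measured values, because its level was lower after 9 h of high-dose thioacetamide-S-oxide in the renal cells and close to the vehicle level in the other cells. The 150 members were taken from 40071 Ensembl transcripts by a rule. Levels were expressed as CPM, estimated counts scaled to the library's total on Ensembl transcripts, and L was the log2 ratio of mean CPM + 1 at a dose to mean CPM + 1 in vehicle cultures. A member had a mean of at least 2 CPM over the vehicle and high-dose libraries at 9 h in each cell type, an L between -0.3 and 0.3 in hepatocytes and in cardiomyocytes, and one of the 150 lowest L values in renal cells, all below -0.5. The level condition was met by 11421 transcripts, the level and flatness conditions together by 5156, and all conditions before the limit of 150 by 245. The 5006 transcripts that met the level and flatness conditions but were not members are called the other eligible transcripts.

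The series holds 90 RNA-seq libraries from cultured Sprague-Dawley rat cells in 18 groups of 5. Hepatocytes received vehicle, 0.025 mM (low) or 0.125 mM (high) thioacetamide-S-oxide, renal tube epithelial cells received vehicle, 0.125 mM or 0.500 mM, and cardiomyocytes received vehicle, 0.50 mM or 1.50 mM, each for 9 or 24 h. The vehicle was maintenance medium, whose product the labels name for hepatocytes and renal cells only. Hepatocytes and renal proximal tubular cells were bought cryopreserved, no age was given for the cells, and no source says that the 5 cultures of a group came from separate animals, so the p-values measure the spread between these cultures only. The doses differ between the cell types, so that cell type and dose cannot be told apart except where the same dose was used.

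Thioacetamide is a liver toxicant that acts after oxidation in the body, and thioacetamide-S-oxide is the first product of that oxidation. Proximal tubular cells line the stretch of the nephron that takes back most of the filtered solutes, and they also clear many foreign compounds. The level of an mRNA reflects both its synthesis and its decay, and CPM is a share of the library, so that a change in one transcript is read against all others. In bulk RNA, fewer cells of one kind and less RNA in each cell cannot be told apart. The deposited tables name transcripts by Ensembl identifier only, and 0 of them could be paired with a gene symbol in the reference tables used here. The function of the members and the markers of the 3 cell types are therefore not described, and identifiers are printed only for the transcripts on which a result turns.

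Of the 90 libraries, 89 held between 10519414 and 55822031 estimated counts on transcripts, and MS-183, a hepatocyte library with vehicle at 24 h, held 249303, which was 8.33% of all its counts. Libraries MS-145 (renal, low dose, 24 h), MS-158 (cardiomyocytes, low dose, 9 h) and MS-172 (cardiomyocytes, low dose, 24 h) also stood apart from the others of their groups. The median log2 difference of the members from the vehicle mean was -0.97 in MS-145, -0.91 in MS-158 and -1.12 in MS-172, and the median of the other eligible transcripts was low in the same libraries, at -0.63, -0.66 and -0.87. None of the 4 libraries entered the choice of the members, and counts over the members that rest on them are given with and without them.

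The choice itself set the direction of the values at 9 h, which are given here as a description. In renal cells, L at the high dose ranged from -1.93 to -0.60 with a median of -0.76, against a median of -0.01 in the other eligible transcripts. In hepatocytes the median L of the members was -0.02, and in cardiomyocytes it was -0.08. The last 3 members inside the limit had renal L values of -0.603, -0.601 and -0.601, and the first 3 transcripts outside it had -0.598, -0.593 and -0.593. The boundary therefore falls in a continuous series of values.

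**Figure D1:**
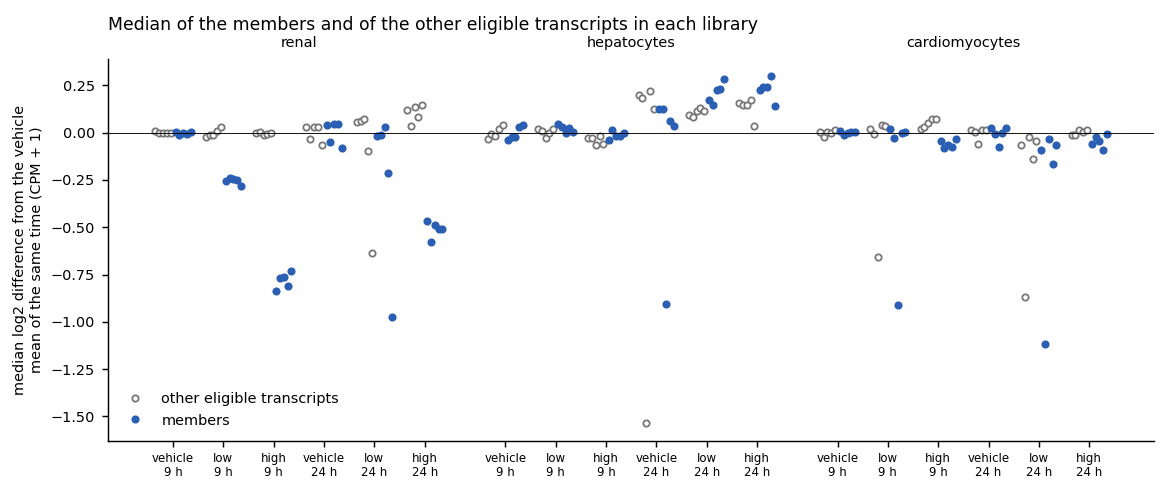
Median log2 difference from the vehicle mean of the same cell type and time, on the scale of CPM + 1, for the 150 members (filled) and the 5006 other eligible transcripts (open), with 1 point for each library and 5 libraries in each group. The renal high-dose libraries lie between -0.83 and -0.73 at 9 h, which the choice of members fixed, and between -0.58 and -0.47 at 24 h. Libraries MS-145, MS-158, MS-172 and MS-183 lie far below the others of their groups in both sets of transcripts.

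The members covered a wide range of levels in all 3 cell types. On the per-length scale of TPM, the median member had 16.35 TPM in renal vehicle cultures at 9 h, 10.3 in hepatocytes and 17.0 in cardiomyocytes, and the other eligible transcripts had medians of 25.15, 22.5 and 22.6. The members ranged from 0.879 to 1655 TPM in renal cells, 0.509 to 3032 in hepatocytes and 0.690 to 3612 in cardiomyocytes. In some members the renal vehicle and high-dose libraries at 9 h overlapped, as at 3.16 ± 4.41 and 0.861 ± 1.92 CPM (SD, n = 5). The highest vehicle level in CPM at 9 h was in renal cells for 64 members, in hepatocytes for 43 and in cardiomyocytes for 43. The deposited length had a median of 2122 bases (409 to 12019) in the members and 2012 in the other eligible transcripts. Whole-number estimated counts in all 90 libraries, within 0.001, which is what Kallisto gives for a transcript that shares no reads with another, were found for 51 members and for 2003 of the 5006 other eligible transcripts. In the remaining members reads were divided between related transcripts, and a difference in one of them may be a difference in that division.

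The lowest renal L belonged to ENSRNOT00000084018. Its 5 vehicle libraries at 9 h gave 27.1, 26.6, 26.4, 27.7 and 25.2 CPM, the low-dose libraries gave 10.01, 10.1, 9.09, 10.5 and 8.03, and the high-dose libraries gave 6.18, 7.02, 5.41, 5.59 and 6.91. All low-dose libraries lay between the high-dose and vehicle libraries, and no groups overlapped. In hepatocytes at 9 h it stood at 4.20 ± 0.729 CPM in vehicle cultures and 4.31 ± 0.627 at the high dose (SD, n = 5), and in cardiomyocytes at 7.52 ± 0.878 and 7.51 ± 1.04. The estimated counts of this transcript were not whole numbers.

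The next lowest L was that of ENSRNOT00000001625, a transcript with whole-number counts. Its renal libraries at 9 h gave 324, 331, 323, 325 and 325 CPM with vehicle, 102, 107, 108, 107 and 106 at the low dose, and 86.2, 91.5, 90.6, 90.1 and 92.3 at the high dose. Most of the distance from the vehicle level was thus already present at the low dose. At 24 h the vehicle libraries themselves had 110, 97.5, 113, 115 and 102 CPM, within the range of the high-dose libraries (115, 86.3, 116, 101 and 117). No other renal library came near the vehicle libraries at 9 h for this transcript.

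At 9 h, 0.125 mM in renal cells, which is the same dose as the high dose of the hepatocytes, gave a smaller and less uniform difference. The vehicle libraries in this comparison are those that chose the members, and the values are a description. The median renal L at the low dose was -0.22, against -0.00084 in the other eligible transcripts. L was below -0.5 in 43 members (28.7%) and in 0.559% of the other eligible transcripts, and it lay within 0.3 of 0 in 84. The vehicle mean exceeded the low-dose mean, and this the high-dose mean, in 116 members, and the high-dose mean was the lowest in 142. All 5 low-dose libraries lay below all 5 vehicle libraries in 66 members (44.0%), against a background of 12.5% of the 11421 transcripts that met the level condition. L was no higher with the low dose than with the high dose in 8 members.

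The values of the low dose at 9 h in the other cell types are a description as well, since the vehicle libraries there are those that chose the members to be flat. In hepatocytes the median L was 0.01, and all 5 low-dose libraries lay below all vehicle libraries in 2 members, against a background of 10.8%. In cardiomyocytes 24 members had all low-dose libraries below the vehicle libraries, against a background of 8.75%, and the median L was -0.14. Without library MS-158 that median was 0.01 and the count was 28 members, against 8.51% of the other eligible transcripts.

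The level of many members also differed between vehicle cultures at 9 and 24 h. In renal vehicle cultures the log2 ratio of mean CPM + 1 at 24 h to that at 9 h had a median of -0.19 in the members and -0.09 in the other eligible transcripts. It was below -0.5 in 33 members (22.0%) and in 3.60% of the other eligible transcripts, and above 0.5 in 4 members. The renal vehicle mean at 9 h is one of the values that chose the members, and choosing on it favours a low ratio, so this comparison is a description. In hepatocyte vehicle cultures it was below -0.5 in 49 members (32.7%) and above 0.5 in 33 (22.0%), against 18.9% and 15.5% of the other eligible transcripts. Without MS-183 it was below -0.5 in 46 members (30.7%) and above 0.5 in 14 (9.33%), against 11.1% and 12.8%. In cardiomyocyte vehicle cultures 3 members had a ratio below -0.5 and 3 a ratio above 0.5, against 1.22% and 1.14% of the other eligible transcripts.

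In renal cells the 2 descriptions overlapped. There were 24 members in which both L at the low dose at 9 h and the vehicle ratio of 24 h to 9 h were below -0.5, against 0.380% of the other eligible transcripts. Both ratios have the vehicle mean at 9 h as their denominator, so a high vehicle mean at 9 h lowers both, and this group was formed after the values were seen. ENSRNOT00000017468, at 1484 TPM one of the most abundant members in renal vehicle cultures at 9 h, is an example. Its mean was 1611 ± 24.05 CPM in vehicle cultures at 9 h, 533 ± 44.5 with the low dose and 500.2 ± 12.7 with the high dose, and at 24 h it was 444 ± 55.5, 419 ± 126 and 380.5 ± 55.3 (SD, n = 5). The 5 vehicle libraries at 9 h, between 1585 and 1642 CPM, lay above every other renal library. ENSRNOT00000084018 and ENSRNOT00000001625 belong to the same 24. In ENSRNOT00000084018, on the other hand, the high-dose mean at 9 h, 6.22 ± 0.735 CPM, lay below the vehicle mean of both times. Which of the vehicle levels, that at 9 h or that at 24 h, is the usual one for these members cannot be told from these libraries.

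**Figure D2:**
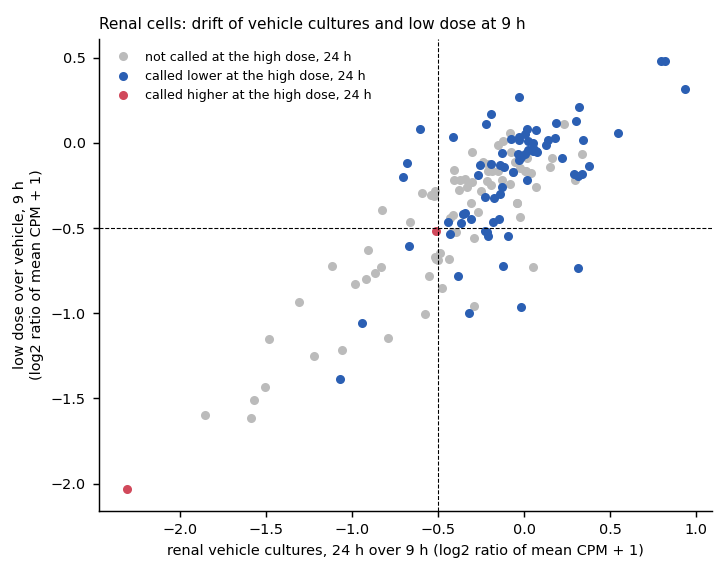
Each point is 1 of the 150 members in renal cells. The x axis gives the log2 ratio of vehicle cultures at 24 h to those at 9 h and the y axis the log2 ratio of the low dose to vehicle at 9 h, both on mean CPM + 1 with the same denominator. Dashed lines mark -0.5. The lower left field holds 24 members, of which 3 were called lower and 2 higher at the high dose at 24 h, and the rest of the plot holds 126, of which 69 were called lower.

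The libraries at 24 h did not enter the choice of the members and allow a test of the same contrast in other cultures. At 0.500 mM for 24 h, 72 of the 150 members fell in renal cells and 2 rose. A member was called at a Benjamini-Hochberg adjusted p of at most 0.05 over all transcripts tested by edgeR's quasi-likelihood test, provided that its fold change on the natural-log scale was 0.41 or more in size. In the same test 14.9% of the 17798 transcripts tested were called lower and 12.0% higher, and 4.39% and 7.35% of the other eligible transcripts. The members' median log2 fold change was -0.60, against 0.02 over all transcripts tested, and 137 of 150 members had a value below 0. In 86 members (57.3%) all 5 high-dose libraries lay below all 5 vehicle libraries, against a background of 18.1%.

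The largest decrease was that of ENSRNOT00000020144. Its renal libraries at 24 h gave 64.2, 64.2, 65.6, 65.9 and 66.5 CPM with vehicle, 52.5, 52.0, 50.3, 53.0 and 56.6 at the low dose, and 13.1, 14.3, 12.9, 16.6 and 13.8 at the high dose. The 3 groups did not overlap. The log2 fold change at the high dose was -2.27 (SE 0.078, adjusted p = 3.72e-09). The vehicle level had been 126.5 ± 2.68 CPM at 9 h (SD, n = 5), and this transcript, too, is one of the 24 with both ratios below -0.5.

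ENSRNOT00000086982 fell almost as much. The vehicle libraries at 24 h gave 38.1, 28.8, 36.5, 37.5 and 29.2 CPM and the high-dose libraries 8.38, 5.82, 8.55, 7.10 and 8.56. Its log2 fold change was -2.20 (SE 0.11, adjusted p = 5.26e-08), and the groups did not overlap. Its vehicle level was 34.02 ± 4.62 CPM at 24 h and 27.2 ± 0.779 CPM at 9 h (SD, n = 5), and the high-dose level was lower at both times. Its low-dose libraries at 24 h spread from 7.31 CPM in MS-145 to 29.4.

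ENSRNOT00000084018, which had the lowest renal L at 9 h, also fell at 24 h. Its vehicle libraries gave 12.6, 12.4, 12.0, 11.05 and 12.6 CPM and its high-dose libraries 7.96, 7.70, 7.63, 5.75 and 7.40. The log2 fold change was -0.79 (SE 0.098, adjusted p = 5.37e-05). ENSRNOT00000001625, second at 9 h, had a log2 fold change of -0.07 (SE 0.070, adjusted p = 0.445) at 24 h and was not called.

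The 2 members that rose were ENSRNOT00000023477 and ENSRNOT00000011945. ENSRNOT00000023477 had 12.5 to 16.1 CPM in the 5 vehicle libraries at 24 h and 66.1, 57.2, 60.1, 59.6 and 67.2 at the high dose, a log2 fold change of 1.99 (SE 0.065, adjusted p = 2.61e-09). Its order at 9 h was the opposite, with 78.1 ± 4.36 CPM in vehicle cultures, 18.3 ± 0.910 with the low dose and 27.5 ± 2.09 with the high dose (SD, n = 5). The high-dose libraries at 24 h lay below the vehicle libraries at 9 h and above all other renal libraries. ENSRNOT00000011945 rose from 63.1 ± 1.95 to 136 ± 13.0 CPM at 24 h (log2 fold change 1.05, SE 0.080, adjusted p = 1.36e-06), after 90.4 ± 3.59 with vehicle and 59.0 ± 3.68 at the high dose at 9 h. Both are among the 24 members with both ratios below -0.5.

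**Figure D3:**
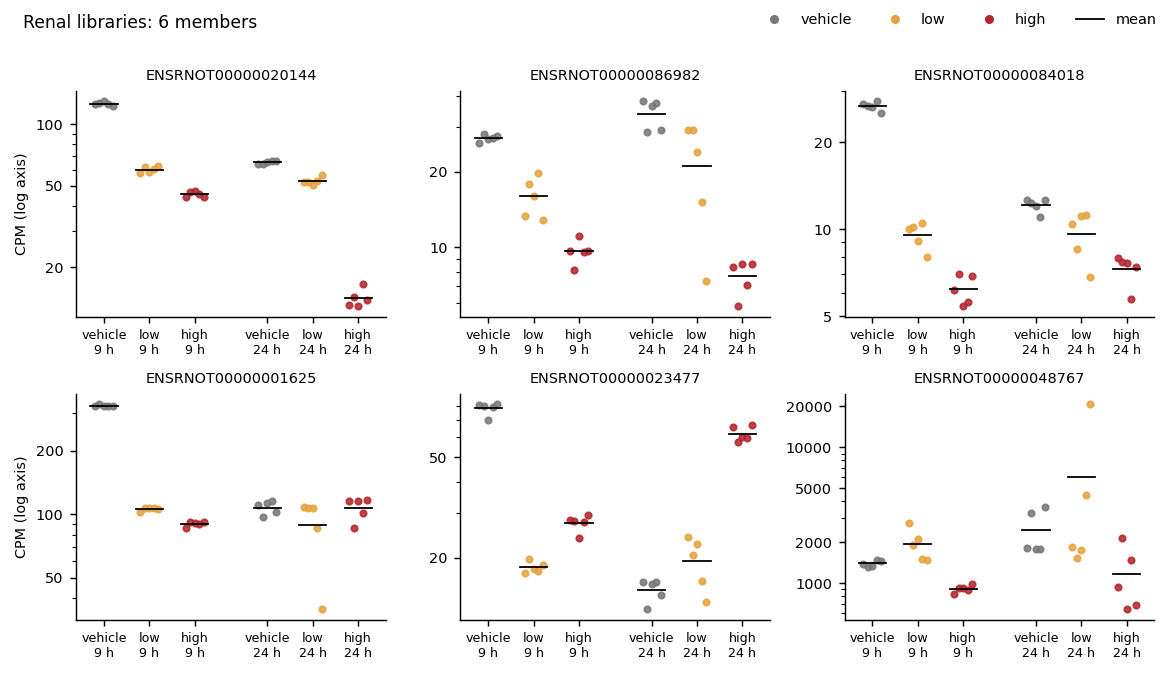
CPM on log axes of 6 members in the 30 renal libraries, with points for single libraries and bars for the mean of each group of 5. ENSRNOT00000020144, ENSRNOT00000086982 and ENSRNOT00000084018 were lower at the high dose at both times, ENSRNOT00000001625 was high only in vehicle cultures at 9 h, and ENSRNOT00000023477 changed its order between 9 and 24 h. In ENSRNOT00000048767 library MS-145 of the low dose at 24 h lies at 20712 CPM.

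The calls at 24 h were spread over the members. Of the 50 members with the lowest renal L at 9 h, 28 were called lower at 24 h, of the next 50, 17, and of the 50 nearest the limit, 27. The extent of the difference at 9 h therefore did not order the calls at 24 h. The 72 members called lower had a median L at the low dose at 9 h of -0.12 and a median vehicle ratio of 24 h to 9 h of -0.05, and the other 78 had -0.33 and -0.36. The vehicle mean at 24 h enters both that ratio and the call, so part of the gap in the ratio is built in. Median length was 2070 bases in the 72 and 2248 in the 78, and the median vehicle level at 9 h was 26.5 and 29.6 CPM. Among the 24 members with both ratios below -0.5, 3 fell, ENSRNOT00000020144 and ENSRNOT00000084018 among them, and 2 rose, with a median log2 fold change of -0.22. Among the other 126, 69 fell, with a median of -0.66. The 24 were formed partly on a low vehicle mean at 24 h, which is also the reference of this comparison, so part of the gap is built in. Against the low dose, a comparison with no vehicle library, 1 of the 24 was lower and 1 higher, and 55 of the 126 were lower. The background over all transcripts tested was 11.3% lower and 8.38% higher. Without MS-145, 3 of the 24 and 60 of the 126 were lower, against 12.6%.

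No member passed the test and the fold-change limit at the low dose at 24 h. None of the 150 was called in either direction by edgeR, against 0.0170% of all transcripts tested called lower and 0.0452% called higher, and 14 members had a lower and 4 a higher level at an unadjusted p under 0.05. At that unadjusted limit 3.29% of all transcripts tested were lower and 3.05% higher. DESeq2 and limma called none either. Without MS-145 the counts at an unadjusted p under 0.05 were 22 and 5, against 6.16% and 4.88% of all transcripts tested. Again none was called, and the background of calls was 0.0892% lower and 0.206% higher. The members' median log2 fold change was -0.09, and -0.04 without MS-145. For ENSRNOT00000020144 the log2 fold change was -0.15 (SE 0.15, adjusted p = 0.826) with MS-145 and -0.33 (SE 0.054, adjusted p = 0.0242) without it, a size below the limit for a call. Its low-dose libraries nevertheless lay below all its vehicle libraries, as did those of 9 members in all, against 1.64% of the other eligible transcripts, and of 10 members (6.67%), against 1.78% without MS-145.

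The high dose differed from the low dose at 24 h in the same direction as from vehicle. This comparison uses no vehicle library. In it 56 members were lower at the high dose and 1 was higher, against a background of 11.3% and 8.38%, and the median log2 fold change was -0.57. Without MS-145 the counts were 63 and 1, against 12.6% and 10.6%. Of the 72 members that fell against vehicle, 52 were also lower than at the low dose, and 60 without MS-145. Both comparisons use the same high-dose libraries, so this overlap is partly fixed and is given as a description. ENSRNOT00000086982 had a log2 fold change of -1.56 against the low dose (SE 0.25, adjusted p = 0.00106), and of -1.72 (SE 0.17, adjusted p = 4.39e-05) without MS-145.

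The 3 members with the highest TPM in renal vehicle cultures at 9 h stood far above the median member. ENSRNOT00000051268 had 1655 TPM, ENSRNOT00000017468 had 1484 and ENSRNOT00000048767 had 1110. ENSRNOT00000048767 had 1394, 1310, 1336, 1481 and 1465 CPM with vehicle at 9 h, 2770, 1920, 2098, 1497 and 1477 at the low dose, and 830.2, 915, 915, 894 and 993 at the high dose. All high-dose libraries lay below the vehicle libraries, and 4 of the 5 low-dose libraries lay above them. At 24 h its vehicle libraries ranged from 1780 to 3662 CPM and its high-dose libraries from 642 to 2144, groups that overlap, with a log2 fold change of -1.12 (SE 0.39, adjusted p = 0.0323). ENSRNOT00000048767 and ENSRNOT00000051268 were far above the other libraries of the group in several libraries that stood apart. ENSRNOT00000048767 had 20712 CPM in MS-145, 19600 in MS-158 and 24692 in MS-172, and ENSRNOT00000051268 had 6886, 6888 and 11573 CPM in these and 99871 CPM in MS-183. In MS-145, MS-158 and MS-172, 119, 119 and 120 of the 150 members had the lowest value of their group, and 3, 3 and 2 members exceeded the highest other library by more than 4 times. In MS-183, 89 members had the lowest value of the group, 54 had the highest, and 24 exceeded the highest other library by more than 4 times. The part that library quality takes in the values of these 2 transcripts was not tested.

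Hepatocytes and cardiomyocytes were the cell types in which the members had been chosen to be flat at 9 h, and at 24 h most members were not called there. In hepatocytes at 0.125 mM, 7 of the 149 members tested fell (4.70%) and 13 rose (8.72%), against a background of 3.72% and 6.65%, and against 100 and 174 of the 5004 other eligible transcripts tested. Without MS-183 the counts were 9 and 27, or 6.04% and 18.1%, against a background of 11.6% and 15.1%, and against 6.99% and 7.17% of the other eligible transcripts. Over the alternatives run, the counts ranged from 3 to 13 lower and from 7 to 27 higher. The members' median log2 fold change was 0.17 with MS-183 and 0.24 without it, against 0.01 and 0.02 over all transcripts tested. It was 0.30 with no filter beyond 1 count and 0.48 with limma. The members' median was thus above 0 in hepatocytes and below 0 in renal cells. The hepatocyte vehicle libraries at 24 h are numbered MS-181 to MS-185. The low- and high-dose libraries of that time are numbered MS-111 to MS-120. No source says whether these vehicle cultures were handled apart. Such a difference cannot be told apart from the dose in hepatocytes at 24 h. In cardiomyocytes at 1.50 mM, 4 members fell (2.67%) and 8 rose (5.33%), against a background of 6.39% and 6.01%, and against 1.04% and 1.08% of the other eligible transcripts. The median was -0.05.

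**Figure D4:**
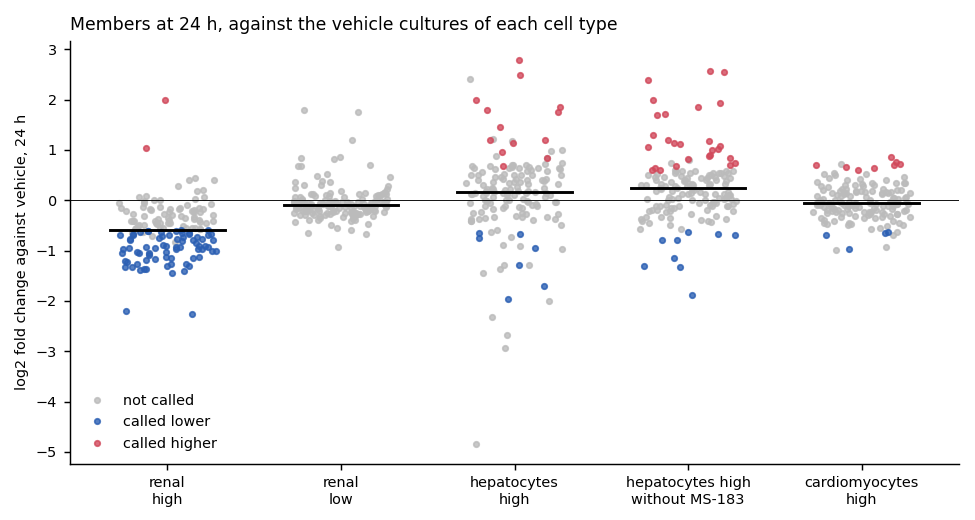
Log2 fold change against vehicle at 24 h of each member tested (points), with the median as a bar, for renal cells at both doses, hepatocytes at the high dose with and without library MS-183, and cardiomyocytes at the high dose. Colours mark members called lower or higher at an adjusted p of at most 0.05 and past the fold-change limit. The medians are -0.60, -0.09, 0.17, 0.24 and -0.05 from left to right.

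The largest increase of a called member in hepatocytes was that of ENSRNOT00000020144, the transcript with the largest decrease in renal cells. Its hepatocyte vehicle libraries at 24 h gave 107, 107, 8.02, 99.2 and 89.98 CPM, where 8.02 belongs to MS-183, and its high-dose libraries gave 664, 564, 682, 498.5 and 580.5. The groups did not overlap, and the log2 fold change was 2.79 (SE 0.47, adjusted p = 0.00352) and, without MS-183, 2.54 (SE 0.11, adjusted p = 6.63e-08). The hepatocyte vehicle mean at 9 h had been 267.8 CPM, so that the vehicle libraries at 24 h lay below those at 9 h. In cardiomyocytes the same transcript fell at 1.50 mM, from 108, 116, 113, 115 and 119 CPM to 51.8, 55.4, 55.9, 65.5 and 65.8, a log2 fold change of -0.96 (SE 0.071, adjusted p = 2.26e-06). At 0.50 mM its cardiomyocyte libraries had 116 ± 4.47 CPM, near the vehicle mean of 114 ± 3.83 (SD, n = 5). At the high dose at 24 h the transcript thus fell in renal cells and cardiomyocytes and rose in hepatocytes.

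ENSRNOT00000004320, with whole-number counts, also rose in hepatocytes and fell in renal cells at the high dose at 24 h. In hepatocytes at 24 h it had 3.33, 3.13, 8.02, 3.47 and 3.29 CPM in vehicle libraries and 18.6, 19.3, 19.7, 18.7 and 23.1 at the high dose, a log2 fold change of 2.49 (SE 0.21, adjusted p = 4.80e-05) and, without MS-183, of 2.56 (SE 0.12, adjusted p = 1.08e-07), then the larger of the pair. The hepatocyte vehicle level at 9 h had been 28.6 ± 2.38 CPM, so the vehicle libraries at 24 h were the low group. In renal cells at 24 h it fell from 84.7 ± 5.57 to 36.5 ± 3.81 CPM (SD, n = 5) by edgeR, with a log2 fold change of -1.27 (SE 0.098, adjusted p = 1.35e-06).

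ENSRNOT00000033123 had the largest decrease of a called member in hepatocytes and fell in renal cells too. In hepatocytes its vehicle libraries gave 49.4, 57.6, 84.2, 52.8 and 56.1 CPM at 24 h and its high-dose libraries 15.9, 14.1, 14.4, 15.4 and 15.2, a log2 fold change of -1.96 (SE 0.15, adjusted p = 2.32e-05) and, without MS-183, of -1.88 (SE 0.071, adjusted p = 3.57e-08). The hepatocyte vehicle level at 9 h had been 10.4 ± 0.983 CPM, so the vehicle libraries at 24 h were the high group. In renal cells at 24 h it fell from 10.9 ± 1.04 to 4.26 ± 0.258 CPM (SD, n = 5) by edgeR, with a log2 fold change of -1.41 (SE 0.097, adjusted p = 5.95e-07). The next largest decrease in hepatocytes was that of ENSRNOT00000015573, with a log2 fold change of -1.70 (SE 0.30, adjusted p = 0.00507) and, without MS-183, -1.33 (SE 0.068, adjusted p = 2.26e-07), and its change in renal cells at 24 h was -0.17 (SE 0.042, adjusted p = 0.00531), too small for a call.

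In cardiomyocytes the largest increases were those of ENSRNOT00000020647 and ENSRNOT00000023477. ENSRNOT00000020647 rose from 199.5, 199, 160, 216 and 206 CPM to 359.8, 363, 367, 340.0 and 355 at 24 h, a log2 fold change of 0.86 (SE 0.068, adjusted p = 3.84e-06). In renal cells it is among the 24 members with both ratios below -0.5. Its renal vehicle mean was 714 ± 12.2 CPM at 9 h and 251 ± 15.5 at 24 h (SD, n = 5). ENSRNOT00000023477 rose in cardiomyocytes by a log2 fold change of 0.76 (SE 0.090, adjusted p = 7.84e-05), and thus in both renal cells and cardiomyocytes at 24 h. After ENSRNOT00000020144, the largest decrease in cardiomyocytes was that of ENSRNOT00000030975, at -0.68 (SE 0.096, adjusted p = 0.000268). This transcript also fell in renal cells (-0.61, SE 0.083, adjusted p = 0.000111) and rose in hepatocytes (1.45, SE 0.33, adjusted p = 0.0191, and 1.30, SE 0.071, adjusted p = 3.34e-07 without MS-183).

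**Figure D5:**
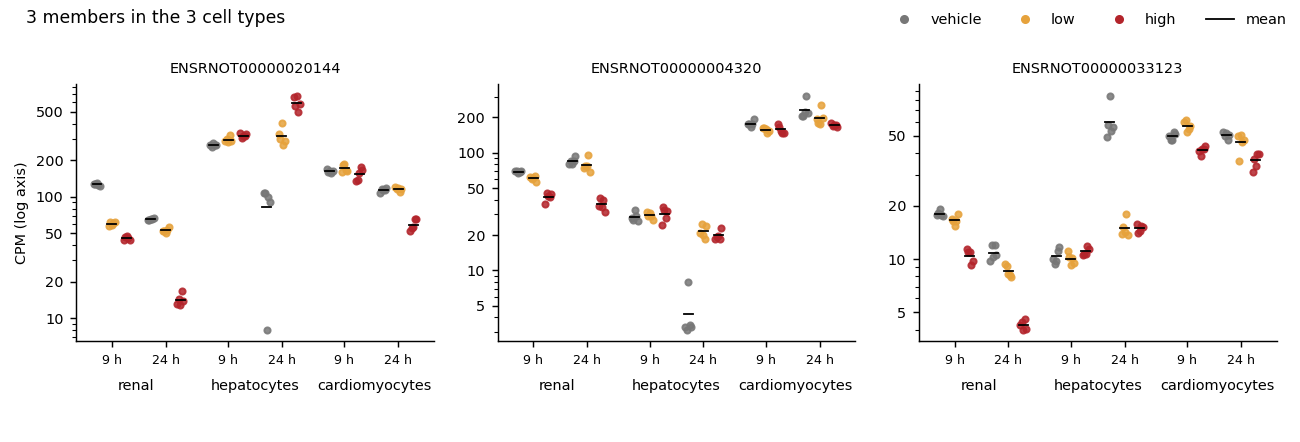
CPM on log axes of 3 members in the 90 libraries, with points for single libraries, bars for the mean of each group of 5, and colours for vehicle, low and high dose from left to right at each time. At 24 h ENSRNOT00000020144 and ENSRNOT00000004320 were lower at the high dose in renal cells and higher in hepatocytes, and ENSRNOT00000033123 was lower in both. The lone low vehicle point of ENSRNOT00000020144 in hepatocytes at 24 h is library MS-183 at 8.02 CPM.

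The difference between the cell types was tested itself, as the interaction of cell type and treatment at 24 h. Against hepatocytes at the high dose, the change in renal cells was lower in 73 members and higher in 3, against a background of 13.9% and 12.6%, with a median difference of -0.82 on the log2 scale. With limma the counts were 40 and 1. Without MS-183 the counts were 90 and 5, against 19.9% and 17.3%. The difference furthest below 0 was that of ENSRNOT00000020144, at -5.06 (SE 0.43, adjusted p = 4.54e-08) and at -4.85 (SE 0.13, adjusted p = 1.70e-15) without MS-183, and the next was that of ENSRNOT00000004320, at -3.85 (SE 0.16, adjusted p = 4.26e-12) and at -3.87 (SE 0.15, adjusted p = 2.07e-13) without MS-183. The difference furthest above 0 was that of ENSRNOT00000023477, at 1.89 (SE 0.33, adjusted p = 0.000270) and at 2.06 (SE 0.10, adjusted p = 1.05e-11) without MS-183. Against cardiomyocytes at the high dose, 66 members were lower and 3 higher, against 11.3% and 9.88%, with a median of -0.55. The doses in these comparisons were 0.500 mM in renal cells, 0.125 mM in hepatocytes and 1.50 mM in cardiomyocytes. The difference from hepatocytes also rests on the hepatocyte vehicle libraries that are numbered apart from the treated ones. The 3 comparisons of cell types share the renal libraries and are not independent of each other.

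At the same dose, 0.500 mM in renal cells and 0.50 mM in cardiomyocytes, 54 members had a lower change in renal cells at 24 h and 2 a higher one, against a background of 9.78% and 7.35%. The median difference was -0.55 on the log2 scale. Without MS-172, a low-dose cardiomyocyte library, the counts were 65 and 2, against 11.0% and 9.11%. The differences furthest below 0 were those of ENSRNOT00000051268, at -4.52 (SE 1.07, adjusted p = 0.00410), and ENSRNOT00000048767, at -3.63 (SE 0.97, adjusted p = 0.00984). Without MS-172 they were -2.35 (SE 0.49, adjusted p = 0.000998) and -1.89 (SE 0.54, adjusted p = 0.0109), so the size of both rested on that library. For ENSRNOT00000086982 the difference was -2.48 (SE 0.26, adjusted p = 8.20e-07) and -2.59 (SE 0.21, adjusted p = 2.80e-08) without it.

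The renal change of the 72 members that fell at 24 h is one side of each difference between cell types, so the overlap of calls is partly fixed and is given as a description. Among the 72, the difference from hepatocytes was called lower in 51, that from cardiomyocytes at the high dose in 54, both of these in 39, and that from cardiomyocytes at the same dose in 48. Without MS-183 the first of these counts was 61 and the count of both was 47, and without MS-172 the last was 60. In hepatocytes 5 of the 72 were also called lower and 8 called higher, or 7 and 14 without MS-183, and in cardiomyocytes 3 were called lower and 2 higher. Over all transcripts tested the shares were 3.72% and 6.65%, or 11.6% and 15.1% without MS-183, and 6.39% and 6.01% in cardiomyocytes. The other renal decreases at 24 h thus came without a call in the other cells, which is not itself a test of a difference.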

How the data were processed

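Poly-A-enriched RNA of 90 cultures had been sequenced as 150-bp read pairs with a stranded kit. For each library the authors had pseudoaligned reads to 65166 targets with Kallisto and deposited its estimated counts (expected counts, not normalized) and TPM, and the submitters' processing notes name kallisto 0.42.4 and Rnor 6.0. Only the 40071 Ensembl transcripts were used. Identifiers were not paired with gene symbols in the tables used here, so that the marker and pathway lists planned for this work could not be applied.

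Estimated counts were rounded and tested with edgeR 4.0.16 under R 4.3.3 (low counts removed by filterByExpr, TMM scaling, glmQLFit and glmQLFTest), only the groups compared entering each of 8 fits, with Benjamini-Hochberg adjustment over all transcripts tested. SE was the absolute log2 fold change divided by the square root of F. Alternatives were DESeq2 1.42.0, upper-quartile scaling, no filter beyond 1 count, limma 3.58.1 on log2(CPM + 0.5), all 24 h groups of the cell types in one fit, no fold-change limit, and each library left out in turn. The functions were tested on simulated data. Reads shared between isoforms are divided by kallisto, which can move counts from one transcript to another.

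Transcripts named are the first 2 in each direction of a fixed ranking: lowest renal L at 9 h, largest decreases and increases called at 24 h in renal cells (all libraries of the groups apart for decreases), hepatocytes (ranked without MS-183) and cardiomyocytes, the most negative difference from cardiomyocytes at the same dose, and the highest renal vehicle level. Some are repeated for other comparisons, chosen after their values were seen. The members, lists and rankings were chosen with earlier results of these data known. No 2 libraries were identical. Counting error was not tested. It is larger in proportion for members near the level limit, which reached down to 1.87 CPM in cardiomyocyte vehicle cultures at 9 h, and in MS-183.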

Additional observations from a re-analysis of the deposited data

Results flagged for a closer look

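A library was marked as apart when its gap to the nearest other library exceeded, as a share of the range of its group of 5, Dixon's critical value, which chance gives in about 1 in 20 groups. In all, 36 sets of 5 values were examined and 6 were marked. The members' median log2 difference from vehicle was -0.906 in MS-183 of the hepatocyte vehicle cultures at 24 h, where the other 4 libraries lay between 0.0363 and 0.124. It was -0.972 in MS-145 of the renal low dose at 24 h (others -0.214 to 0.0284), -0.913 in MS-158 of the cardiomyocyte low dose at 9 h (others -0.0300 to 0.0213) and -1.12 in MS-172 of the cardiomyocyte low dose at 24 h (others -0.167 to -0.0356). ENSRNOT00000084018 had 5.75 CPM in MS-149 of the renal high dose at 24 h, where the others had 7.40 to 7.96. ENSRNOT00000011945 had 138 CPM in MS-145, where the other low-dose renal libraries at 24 h had 86.8 to 98.4.

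The change at 24 h differed between cell types by the interaction test (edgeR, adjusted p of at most 0.05 and past the fold-change limit) in 73 members lower and 3 higher in renal cells than in hepatocytes, against 13.9% and 12.6% of all transcripts tested. Without MS-183 the counts were 90 and 5, against 19.9% and 17.3%. Against cardiomyocytes at the high dose, 66 were lower and 3 higher, against 11.3% and 9.88%. Against cardiomyocytes at the same dose, 54 were lower and 2 higher, against 9.78% and 7.35%, and without MS-172 the counts were 65 and 2, against 11.0% and 9.11%.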

How the results depend on the processing

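The choice of members kept 124 of 150 with TMM-scaled CPM, 105 with the deposited TPM, 141 with a pseudocount of 0.5, and 137 to 149 with 1 library left out. For the high dose against vehicle in renal cells at 24 h, between 67 and 75 members were called lower under the other tools, scalings, filters and fits, 107 with no fold-change limit, and 69 to 76 with 1 library left out. Alternatives for single members were run for the first 2 ranked in each direction against vehicle at the high dose in each cell type, and for ENSRNOT00000051268 and ENSRNOT00000048767 against cardiomyocytes at the same dose. These 230 values kept their direction and their call. Other named calls were not rerun under these alternatives, apart from the values given without single libraries.

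Counts in hepatocytes moved under most alternatives. Against 7 lower and 13 higher, DESeq2 gave 13 and 23, upper-quartile scaling gave 4 lower, no filter beyond 1 count gave 3 and 7, limma gave 3 and 7, and one fit of all 24 h groups gave 25 higher. Leaving out 1 library gave 3 (without MS-185) to 9 lower and 7 (without MS-119) to 27 higher, the highest of both without MS-183, which held 249303 counts on transcripts. Lower counts of 3 or 4 were also given by leaving out MS-181, MS-182, MS-184, MS-116, MS-117, MS-118 or MS-119, and 8 higher by leaving out MS-181, MS-185, MS-116, MS-118 or MS-120. For the difference between renal cells and hepatocytes, limma gave 40 lower and 1 higher, upper-quartile scaling 5 higher and no fold-change limit 5 higher, and leaving out 1 library gave 57 to 90 lower and 2 to 5 higher (5 without MS-183). With no fold-change limit, 33 members were lower and 26 higher in cardiomyocytes, 8 were higher in renal cells against vehicle, 3 against the low dose, and 7 in the difference from cardiomyocytes at the high dose, where one fit of all groups gave 1 and leaving out 1 library 2 to 4. In the difference from cardiomyocytes at the same dose, DESeq2, upper-quartile scaling and no filter gave 1 higher. Leaving out 1 library gave 1 to 2 higher there, with 1 without any single vehicle library, MS-146, MS-147, MS-148, MS-149, MS-171 or MS-175, and 50 to 65 lower. In cardiomyocytes 3 to 5 were lower and 5 (without MS-168) to 9 higher with 1 library left out. The high dose against the low dose gave 49 to 63 lower and 1 higher. The cause of these shifts was not tested. No paired analysis was possible because the replicate labels are not shared between groups.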
